A study of Homo sapiens with 6 samples.

Results

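The keratins are the intermediate filament proteins of epithelial cells. On the microarray, 44 keratin genes were measured by 56 probe sets that carry a single KRT gene symbol, out of 19775 genes with such a probe set and 54614 probe sets in all. Members were taken by symbol and not by a measured value, though earlier results of these data were known when the family was chosen. Keratin-associated proteins and pseudogenes do not belong to the set. Each gene is described by its probe set with the highest mean signal, and _x_at probe sets, whose probes can bind related transcripts, stand only for KRT8, KRT18 and KRT33A, which have no other kind. The signals came from HT-29, a human colon adenocarcinoma cell line. RNA of cells kept for 72 hours with 10 µM 5-aza-2′-deoxycytidine (5-Aza), a cytidine analog that traps DNA methyltransferases, was hybridized to 3 HGU133 Plus2.0 arrays. RNA of control cells, which received only the water and acetate solvent, was hybridized to another 3. The treatment was done in medium without FCS. The duration and the serum of the control cultures are not given apart in the sources used here. Whether the replicate arrays stem from separate cultures is not given in the sources used here, and the p-values therefore reflect the spread between arrays and nothing more.

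Keratin filaments are built from pairs of 1 acidic type I and 1 basic type II protein, and each kind of epithelium makes its own pairs. Simple epithelia, such as the lining of the gut, make KRT8 with KRT18, KRT19 and KRT20, while stratified epithelia, the cornea, hair and nail make other pairs. With few exceptions, among them KRT18, the type I genes lie side by side on chromosome 17 and the type II genes on chromosome 12. Of the 44 genes here, 24 were type I and 20 type II, and 23 lay on chromosome 17 and 21 on chromosome 12.

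Since the methyltransferases that 5-Aza traps act on CpG sites, the promoter sequences of the family are shown first. RefSeq sequences (GRCh38.p14) were at hand for 29 of the 44 genes, all on the minus strand, and were not used for the other 15. Those 15 include KRT7, KRT13, KRT15, KRT18, KRT19, KRT23 and KRT80, which the sequences therefore do not describe. Windows of 250 bases ending just before the gene start are printed 5′ to 3′ on the strand of the gene, with CpG dinucleotides in capitals. KRT10 (chr17:40822615-40822864), KRT12 (chr17:40867224-40867473) and KRT20 (chr17:40885243-40885492) are shown because their signals did not overlap between treated and control arrays. The signals of KRT19 and KRT23 did not overlap either, but these genes had no window at hand. KRT75 (chr12:52434372-52434621) is shown because it had the most CpG sites of the 29 windows.
KRT10: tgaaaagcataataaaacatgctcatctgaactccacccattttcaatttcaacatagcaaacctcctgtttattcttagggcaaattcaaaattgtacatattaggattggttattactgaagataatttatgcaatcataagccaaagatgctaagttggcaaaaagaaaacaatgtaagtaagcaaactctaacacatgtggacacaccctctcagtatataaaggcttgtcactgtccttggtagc
KRT12: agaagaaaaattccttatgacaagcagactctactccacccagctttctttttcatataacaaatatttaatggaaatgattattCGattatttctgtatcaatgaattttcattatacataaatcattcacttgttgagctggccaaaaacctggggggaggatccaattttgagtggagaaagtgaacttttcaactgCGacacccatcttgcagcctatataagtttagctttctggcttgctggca
KRT20: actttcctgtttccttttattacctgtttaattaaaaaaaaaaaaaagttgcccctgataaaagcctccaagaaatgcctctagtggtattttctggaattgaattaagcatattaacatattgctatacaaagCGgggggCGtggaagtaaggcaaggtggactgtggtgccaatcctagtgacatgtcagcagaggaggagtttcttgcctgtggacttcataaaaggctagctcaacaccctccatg
KRT75: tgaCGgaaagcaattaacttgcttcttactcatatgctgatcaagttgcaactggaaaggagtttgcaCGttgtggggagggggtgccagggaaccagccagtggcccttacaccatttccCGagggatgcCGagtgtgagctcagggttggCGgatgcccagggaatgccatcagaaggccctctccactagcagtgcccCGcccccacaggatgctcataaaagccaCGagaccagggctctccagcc

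The 29 keratin windows at hand were poor in CpG. Of the keratins described below as above background on all arrays, they include KRT8, KRT10 and KRT20 alone. The window of KRT8 lies inside the annotated span of its gene, and whether it is the promoter of the measured transcript was not tested. KRT10 had 0 CpG sites, KRT12 and KRT20 had 2 each and KRT75 had 7. Over the 29 genes the median was 2 (range 0 to 7), against a median of 11 over all 27305 promoters of the same length. A count of at most 2 was found in 20 of the 29 keratin windows and in 23.6% of all windows, and 44.2% of all windows held at most 7. The median GC content was 45.2% in the keratin windows and 58% in all windows. The letters TATAAA on the strand of the gene were present in 14 of 29 keratin windows (48.3%) and in 7.17% of all windows. In 13 of the keratin windows, and in 2.41% of all, they began 25 to 35 bases before the gene start. KRT10 has them 29 bases before its start (tatataaagg in the printed sequence), and the windows of KRT12, KRT20 and KRT75 have no such match. On the opposite strand TATAAA occurred in 1 keratin window and in 5.40% of all windows. In 5 of the 29 genes (KRT8, KRT25, KRT40, KRT73 and KRT84) the window lies inside the annotated span of the gene. The sequences describe the reference genome, and methylation was not measured on these arrays.

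**Figure D1:**
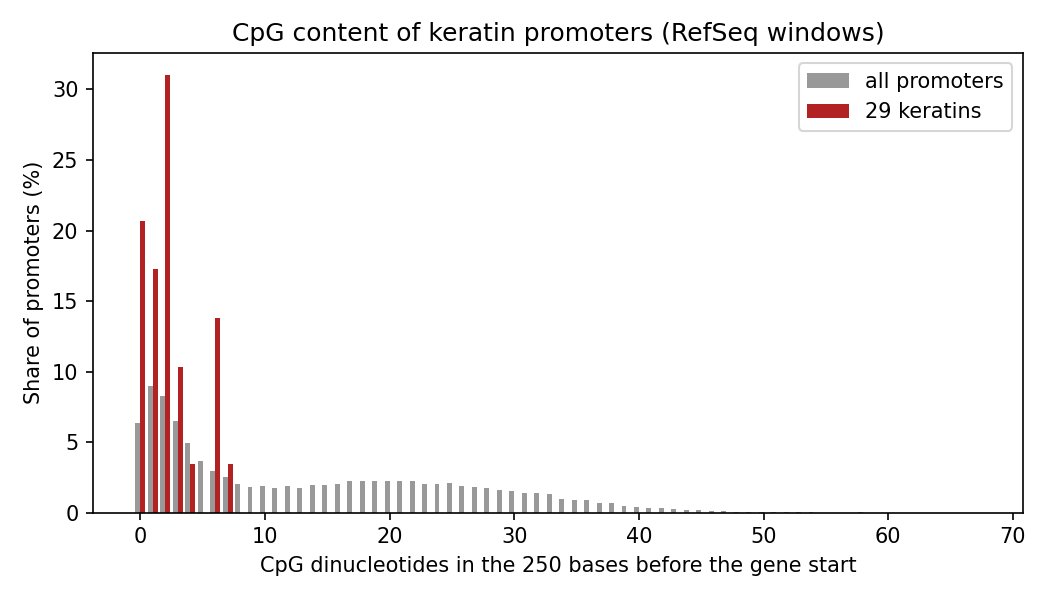
Number of CpG dinucleotides in the 250 bases before the gene start (horizontal axis) against the share of promoters in percent (vertical axis), for all 27305 promoters (grey) and the 29 keratin promoters (red). Keratin windows held 0 to 7 CpG sites, while the grey bars reach far to the right of them.

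Signals had been scaled by the authors, so that the mean of each array without the lowest and highest 2% was 500. Probe sets for TrpnX, a bacterial transcript, reached a highest signal of 22.6 to 31.8 on the treated arrays and of 23.8, 33.5 and 42 on control arrays 1 to 3. A signal up to 42 was therefore not told apart from background. The median signal of an array was 84.6 ± 1.42 in treated cells (SD, n = 3) against 74.2 ± 2.56 in control cells, and hybridization controls were weakest on control array 3 (5826, against 9872 to 12355). The log2 ratio of the 3′ to the 5′ probe set of ACTB, a measure of RNA integrity, was 0.64 to 0.80 in treated and 0.46 to 0.60 in control cells. The part of these differences in the results below was not tested. EPCAM, CDH1, VIL1 and LGALS4, markers of colon epithelium, had mean signals far above background in both groups, while CDX2 (42.7 ± 43.1 in treated and 75.8 ± 11.9 in control cells) and GPA33 (60.2 and 46.6) were near it. Of the 5 keratinocyte markers measured, KRT10 alone had a mean signal above 42, and the means of KRT5, KRT14, KRT1 and DSG3 were lower, so the summed keratinocyte signal of 3738 to 4034 in treated and 3030 to 3453 in control cells was nearly all KRT10. Mean signals above 42 were found for 2 of 5 fibroblast, 1 of 3 leukocyte and 1 of 3 endothelial markers. Of all these markers VWF, of endothelial cells, was higher at an unadjusted p under 0.025, with signals of 24.5, 68.9 and 72.2 in treated and 11.2, 20.4 and 7.7 in control cells.

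After 5-Aza treatment, KRT8, KRT18, KRT19 and KRT20, the main keratins of the gut lining, had log2 fold changes between -0.35 and 0.35 and did not pass the test, while KRT23 and KRT12, with weaker signals, did. The 10 genes above 42 on all 6 arrays were KRT7, KRT8, KRT10, KRT13, KRT15, KRT18, KRT19, KRT20, KRT23 and KRT80. KRT23 had a higher signal in treated cells at an unadjusted p under 0.025, the threshold used in the study. KRT12, a keratin of the cornea, passed it as well from near background. No keratin passed it downwards. Treated and control cells were compared with limma on log2(signal + 1). The added 1 damps the fold changes of weak genes, but a single low signal weighs heavily on this scale. The fold from the log2 values was above the ratio of mean signals for KRT24 (4.79 against 2.73). For KRT4 it was below that ratio (2.94 against 4.71), so the fold changes of weak genes may err in either direction. Over all genes, 3.01% were higher and 0.915% were lower at that threshold, and with 2 higher and 0 lower of 44, the keratins were near this background. With p-values adjusted over all probe sets, 0 of the 44 keratins and 0% of all genes passed 0.05 in limma. An unadjusted p under 0.05 (limma) was found for 4 of the 44 keratins and for 1427 of all 19775 genes. The smallest adjusted p of a keratin was 0.337 (limma). The count of 2 higher keratins became 1 without 5-Aza array 2, 4 without control array 1, 5 without control array 2 and 5 without control array 3, so it rests on single arrays. Of all genes, 2.31%, 2.51%, 3.24% and 3.40% were higher in these settings, in the same order.

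The log2 fold change was above 0 in 35 of the 44 keratins, with a median of 0.52, while it was above 0 in 54.9% of all genes, with a median of 0.04. In the 15 keratins with a mean signal above 42, the median was 0.27 and 11 (73.3%) were above 0. All 13517 genes with such a mean signal had a median of 0.01, with 52.5% above 0. In the 29 keratins with a mean signal of at most 42, the median was 0.88 and 24 were above 0. All 6258 genes with such weak signals had a median of 0.23, with 60.0% above 0. In the 10 keratins above background on every array the median was 0.01, with 6 above and 4 below 0. With 16 in place of 1 added before the log2, which damps weak signals, the median of all keratins was 0.29 and that of all genes 0.03. The split at 42 ran between KRT74 (mean over all arrays 41.97) and KRT72 (39) on the weak side and KRT37 (44.1) and KRT25 (49.05) on the strong side.

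**Figure D2:**
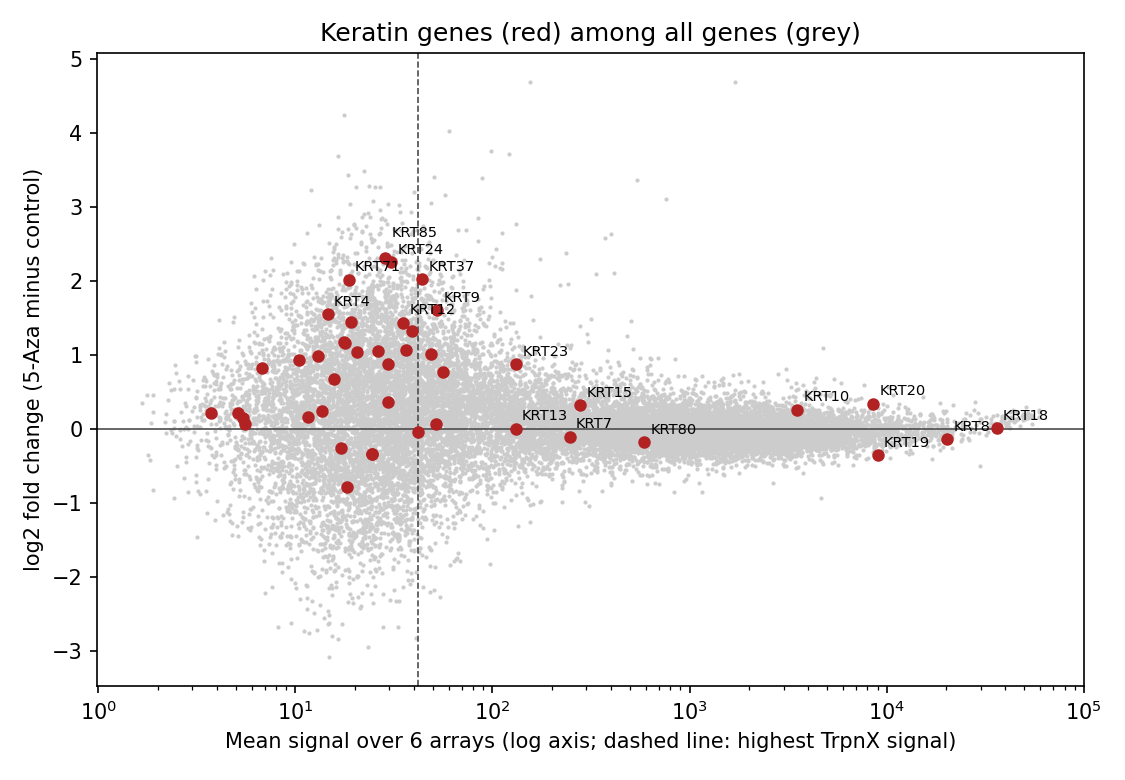
Mean signal over the 6 arrays (horizontal log axis) against the log2 fold change of 5-Aza-treated over control cells (vertical axis), with 1 point a gene, keratins in red and all 19775 genes in grey. The strong keratins at the right lie close to 0 (KRT8 -0.13 and KRT18 0.02), and the keratins with large values lie around or left of the dashed line at 42, where the grey cloud is wide.

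Treated and control arrays did not overlap for 5 of the 44 keratins. All treated signals were above all control signals for KRT10, KRT12, KRT20 and KRT23, and below for KRT19. Over all genes, 9.92% lay above and 6.94% below in this way, to be set beside 4 and 1 of the 44 keratins. Among the 15 keratins with a mean signal above 42, KRT10, KRT20 and KRT23 lay above and KRT19 below, against 10.7% and 8.69% of all genes with such signals, and KRT23 was the 1 gene of these 15 at an unadjusted p under 0.025, against 2.41% higher and 0.54% lower of all such genes. When each array was centred on its median, 2 keratins lay above and 3 below in place of 4 and 1. Without 5-Aza array 3, or without control array 1, 2 or 3, 9, 9, 12 and 11 keratins lay above. Without any 1 of the control arrays 2 lay below. The share of all genes was not computed for these settings. With 1 array fewer any gene reaches such an order more easily, so these counts are not a result about keratins.

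KRT8 and KRT18 are the main pair of simple epithelium. KRT8 had signals of 19449, 18155 and 20619 on treated arrays 1 to 3 and of 20190, 24405 and 19371 on control arrays 1 to 3. The groups overlapped, and control array 2 was highest. On the log2 scale KRT8 differed by -0.13 (SE 0.16, 95% interval -0.54 to 0.28, adjusted p = 0.888, limma). KRT18, its type I partner, had signals of 34681, 36660 and 37248 in treated and of 33400, 43762 and 31097 in control cells. The treated arrays lay between the control arrays. KRT18 had a log2 fold change of 0.02 (SE 0.18, 95% interval -0.44 to 0.48, adjusted p = 0.989, limma), and its sign turned under quantile normalization (-0.09) and median centring (-0.17). A change of KRT8 or KRT18 within these intervals could not be told from the spread between the arrays. KRT8 was at -0.32 with each array centred on its median and at -0.03 without control array 2. Both are read by _x_at probe sets only.

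KRT19, the smallest keratin, which lacks most of the tail domain, was the 1 strong keratin with all treated arrays below all control arrays. It had signals of 7691, 7692 and 7927 in treated and of 8331, 14457 and 8064 in control cells. Control array 2 stood far above the rest, and the other control arrays were only slightly above the treated ones. The treated mean was 7770 ± 136 (SD, n = 3), against 10284 ± 3616 for the control (exact p = 0.1, two-sided permutation test, which cannot give less with 3 arrays a group). The log2 fold change was -0.35 (SE 0.27, 95% interval -1.03 to 0.33, adjusted p = 0.830, limma), and it was -0.08 without control array 2 and -0.54 with each array centred on its median. A second probe set of KRT19 stayed at background, with signals from 2.0 to 32.6.

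KRT20, a keratin of differentiated intestinal epithelium, had higher signals in treated cells on every array. The signals were 9709, 9222 and 9662 in treated and 8226, 7970 and 6434 in control cells. The groups did not overlap, and the treated arrays lay close together. The treated mean was 9531 ± 269 (SD, n = 3), against 7543 ± 969 for the control (exact permutation p = 0.1). The log2 fold change was 0.35 (SE 0.16, 95% interval -0.06 to 0.75, adjusted p = 0.735, limma) and did not pass the threshold. With a variance that follows the signal (limma with trend and robust settings) KRT20 passed an unadjusted p under 0.025. With each array centred on its median, its log2 fold change was 0.16, and it was not past the threshold. KRT20 was among the genes that the study picked partly for their response on these arrays, so its direction here is not independent evidence.

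KRT23, a type I keratin first known from pancreatic cells treated with an inhibitor of histone deacetylases, was the keratin above background that passed the threshold. It had signals of 137.5, 190.8 and 186.5 in treated and of 108.6, 81.3 and 87.0 in control cells. All treated signals were above all control signals, with the smallest gap between treated array 1 and control array 1. The treated mean was 172 ± 29.6 (SD, n = 3), against 92.3 ± 14.4 for the control (exact permutation p = 0.1). KRT23 thus had a log2 fold change of 0.88 (SE 0.21, 95% interval 0.35 to 1.42, adjusted p = 0.502, limma), a ratio of mean signals of 1.86. The unadjusted p of 0.00756 (limma) rose above 0.025 when 5-Aza array 2 (0.0292), 5-Aza array 3 (0.0296) or control array 3 (0.0263) was left out. The log2 fold change was between 0.80 and 1.03 without each array. With the replicate number as a block the unadjusted p was also above 0.025 (0.0384, limma), so KRT23 did not pass.

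KRT7, a type II keratin of ducts and glands that is usually low in colon, was above background in both groups. The signals were 221.3, 239.1 and 253.7 in treated and 219.4, 289.9 and 259.0 in control cells. The groups overlapped, and the log2 fold change was -0.10 (SE 0.17, 95% interval -0.53 to 0.33, adjusted p = 0.922, limma). It was -0.28 with each array centred on its median, and -0.20 to -0.0043 without each array in turn. The 3 further probe sets of KRT7 gave log2 fold changes of 0.10, 0.37 and -0.70. The first of them had signals of 107.0 to 217.1 and the others were near or at background.

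**Figure D3:**
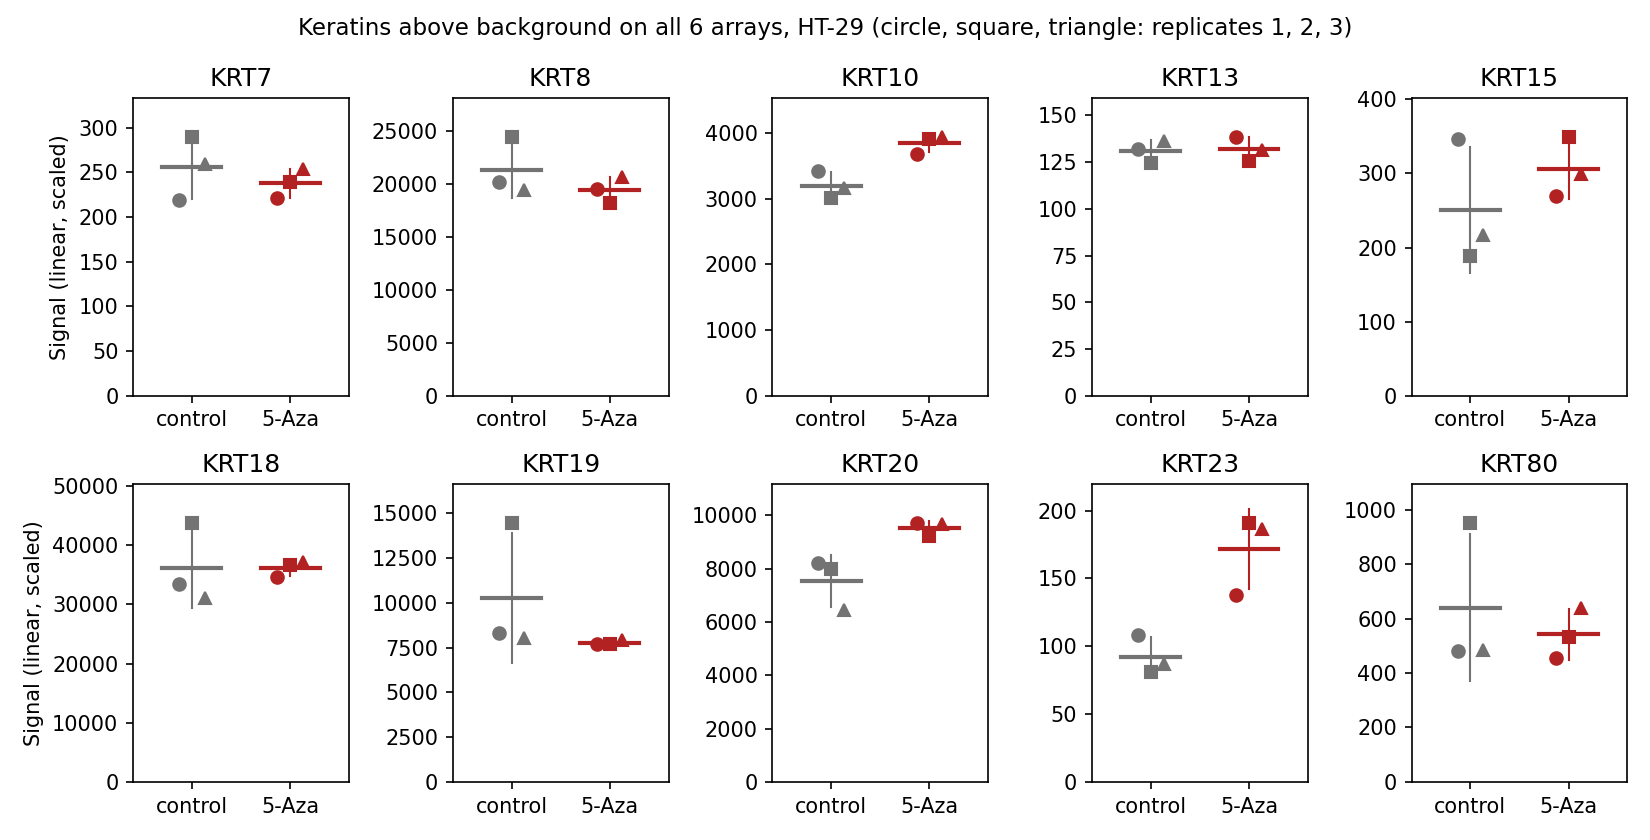
Signals (vertical axes, linear scale from 0, a separate axis for each gene) of the 10 keratins above background on all 6 arrays in control (grey) and 5-Aza-treated cells (red), with each array as a point, the mean as a horizontal line and the SD (n = 3) as a vertical line. The groups are apart for KRT10, KRT20 and KRT23 (treated above) and for KRT19 (treated below), and control array 2 (square) is highest for KRT7, KRT8, KRT18, KRT19 and KRT80.

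In the 6 keratins of simple epithelium together, 3 log2 fold changes were above 0 and 3 below, with a median of -0.04. Control array 2 had the highest signal of all 6 arrays in 5 of the 10 strong keratins, while this held for 20.7% of the 13517 genes with a mean signal above 42. Relative to the mean of the other control arrays, control array 2 had a ratio of 1.97 for KRT80, 1.76 for KRT19, 1.36 for KRT18, 1.23 for KRT8, 1.21 for KRT7 and 1.09 for KRT20. Its ratio was below 1 for KRT15 (0.67), KRT23 (0.83), KRT10 (0.92) and KRT13 (0.93).

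Among the keratins of stratified epithelia, 16 of 18 log2 fold changes were above 0, with a median of 0.78. Of all genes 54.9% were above 0, with a median of 0.04, and of the 6258 weak genes 60.0%, with a median of 0.23. KRT12 was the only gene of this list at an unadjusted p under 0.025 (3.01% higher and 0.915% lower of all genes). Of the 18, KRT10, KRT13, KRT15 and KRT80 were above background on all arrays. KRT10 is the type I keratin of the suprabasal epidermis. Its signals were 3686, 3907 and 3943 in treated and 3417, 3012 and 3163 in control cells. The groups did not overlap (exact permutation p = 0.1). The log2 fold change was 0.27 (SE 0.14, 95% interval -0.08 to 0.62, adjusted p = 0.759, limma), and it passed an unadjusted p under 0.025 only with the trend and robust settings. It was 0.08 with each array centred on its median and 0.05 with the probe sets of the gene averaged. The other probe sets of KRT10, both of the _x_at kind, gave 0.11, also without overlap, and -0.23, with overlap, so the probe sets differ in sign.

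KRT13, of the lining of the mouth and oesophagus, had signals of 138.5, 125.6 and 131.3 in treated and 131.9, 124.6 and 136.1 in control cells. The groups lay on top of each other, and its log2 fold change of 0.01 (SE 0.14, 95% interval -0.33 to 0.35) turned to -0.13 under quantile normalization and -0.18 under median centring. KRT15, a keratin of basal cells, had signals of 269.7, 349.5 and 299.4 in treated and 347.1, 188.0 and 217.4 in control cells. The groups overlapped through control array 1, and the log2 fold change was 0.33 (SE 0.28). It was 0.59 without control array 1, 0.15 without control array 2 and 0.14 with median centring. KRT80, a type II keratin found near desmosomes, had signals of 455.0, 531.2 and 640.0 in treated and 481.9, 950.5 and 484.1 in control cells. Control array 2 was again far above the rest, and the log2 fold change of -0.17 (SE 0.33) was 0.15 without it.

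KRT12, which pairs with KRT3 in the corneal epithelium, had the smallest p of the family at a weak signal. Its signals were 59.4, 57.0 and 39.1 in treated and 17.7, 22.9 and 14.7 in control cells. All 3 treated signals were above the highest TrpnX signal of their own array and none of the control signals was. The treated mean was 51.8 ± 11.1 (SD, n = 3), against 18.4 ± 4.15 for the control (exact permutation p = 0.1). Its log2 fold change was 1.44 (SE 0.26, 95% interval 0.80 to 2.09, adjusted p = 0.337, limma). The control level is a background signal, so the fold change cannot be read as that of the transcript. It kept an unadjusted p under 0.025 without each array in turn and lost it with the trend and robust settings (0.0382, limma). KRT3, its partner, stayed near background, with signals from 14 to 52.2 in treated and 17 to 39.9 in control cells.

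KRT9, of the palms and soles, had signals of 39.0, 79.1 and 103.7 in treated and 12.3, 11.7 and 68.7 in control cells. Control array 3 alone overlapped the treated arrays, and the log2 fold change of 1.61 (SE 0.79) was 2.42 without it and at least 1.19 without any other array. KRT24 had signals of 38.1, 66.3 and 30.0 in treated and 3.7, 43.0 and 2.6 in control cells. Here control array 2 overlapped, and the log2 fold change of 2.26 (SE 1.04) was 3.40 without it and at least 1.59 without any other array. KRT78 (33.4 to 76.5 in treated and 23.1 to 75.8 in control cells) and KRT79 (25.6 to 86.3 and 9.3 to 58.9) had overlapping groups, with log2 fold changes of 0.07 (SE 0.54) and 1.07 (SE 0.87). That of KRT79 was 0.52 without 5-Aza array 3, 0.70 and 0.63 without control arrays 1 and 2, and 1.89 without control array 3. That of KRT78 turned to -0.16 under quantile normalization and to -0.12 under median centring. KRT5 and KRT14, the pair of basal keratinocytes, did not exceed 42 on any of the 6 arrays, with signals from 3.5 to 9.0 for KRT5 and from 1.7 to 38.5 for KRT14.

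Of the 7 keratins of the inner root sheath and companion layer of the hair follicle, 6 had a log2 fold change above 0, with a median of 1.00. In all 6258 weak genes the share above 0 was 60.0% and the median 0.23. None of the 7 passed the threshold (3.01% higher and 0.915% lower of all genes). KRT75, of the companion layer, had signals of 71.8, 62.0 and 70.7 in treated and 24.0, 33.7 and 75.3 in control cells. The treated arrays were even, while control array 3 overlapped them, and the log2 fold change of 0.77 (SE 0.44) was 1.23 without it and 0.42 without control array 1. KRT72, of the inner root sheath, had signals of 38.8, 57.0 and 46.5 in treated and 8.1, 74.5 and 9.1 in control cells, so control array 2 was the highest of all. Its log2 fold change of 1.33 (SE 0.88) was 2.32 without that array, 0.79 without control array 1 and 0.87 without control array 3. KRT25 (40.0 to 75.2 in treated and 7.2 to 75.7 in control cells) and KRT74 (30.0 to 43.6 and 13.7 to 67.2) overlapped widely, with 1.01 (SE 0.86) and -0.03 (SE 0.64). That of KRT25 was 0.11 without control array 3 and 1.73 without control array 2.

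The hair and nail keratins numbered 12, and 9 had a log2 fold change above 0, with a median of 0.22. In all 6258 weak genes the share above 0 was 60.0% and the median 0.23. None of the 12 passed the threshold (3.01% higher and 0.915% lower of all genes). KRT37, a type I hair keratin, had signals of 68.5, 44.9 and 80.9 in treated and 7.6, 6.8 and 56.1 in control cells. Control array 3 reached the treated range, and the log2 fold change of 2.03 (SE 0.84, adjusted p = 0.709, limma) was 2.96 without it and at least 1.53 without any other array. KRT85, a type II keratin of the hair cortex, had the largest log2 fold change of the 44 keratins, with 2.32 (SE 0.89, adjusted p = 0.678, limma). Its signals were 58.1, 85.7 and 8.1 in treated and 4.7, 8.1 and 6.2 in control cells. Treated array 3 was at the level of the control arrays, and the log2 fold change was 3.31 without it and 1.69 without treated array 2. The other hair and nail keratins stayed below a mean of 42 in both groups.

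**Figure D4:**
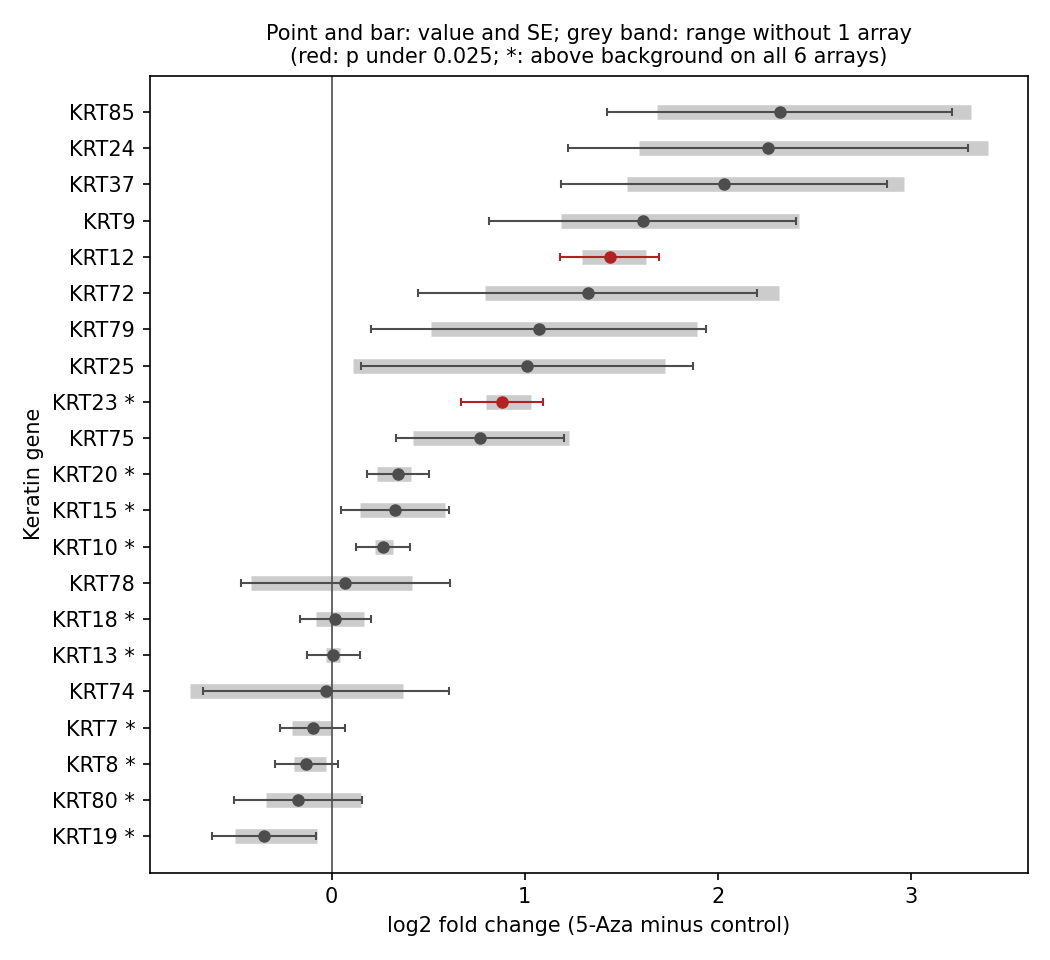
Log2 fold change of 5-Aza-treated over control cells (horizontal axis) for the 21 keratins with a mean signal above 42 in at least 1 group, with the SE as a bar and the range of values without each array in turn as a grey band. KRT12 and KRT23, in red, passed an unadjusted p under 0.025, and the bands are wide for weak genes such as KRT24 and KRT85. KRT9, KRT12, KRT24, KRT25, KRT37, KRT72, KRT79 and KRT85 are included through the treated mean alone, and KRT74 through the control mean alone. The direction of these genes is therefore partly set by the choice.

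In the 23 keratins with a mean signal of at most 42 in both groups, log2 fold changes ran from -0.77 to 2.02. Of these, 19 were above and 4 below 0, and signals ran from 0.9 to 59.9. Of all 6258 genes with a mean over all arrays of at most 42, 60.0% were above 0. None of the 23 keratins had an unadjusted p under 0.025. The largest value was that of KRT71, of the inner root sheath, with signals of 32.4, 38.4 and 15.7 in treated and 3.5, 2.6 and 19.2 in control cells. Over all 44 keratins, 8 were not above the highest TrpnX signal of the same array on any array. The type I keratins had a median log2 fold change of 0.86, with 20 of 24 above 0. The type II keratins had 0.31, with 15 of 20 above 0. Over all genes the median was 0.04, with 54.9% above 0.

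Counted array by array, the 29 weak keratins were set against background in 2 ways. On treated arrays 1 to 3, 10, 16 and 10 of the 29 exceeded the highest TrpnX signal of the same array, and on control arrays 1 to 3, 6, 2 and 2 did. Among all 6258 weak genes the shares were 27.4%, 39.4% and 32.2% on treated and 27.7%, 19.8% and 13.0% on control arrays. TrpnX itself differed between arrays and was highest on control array 3. Against the common level of 42, 5, 9 and 2 of the 29 exceeded it on treated and 1, 2 and 2 on control arrays. Treated array 3 thus did not differ from control arrays 2 and 3 by this count. Of all weak genes, 16.6%, 15.9% and 16.1% exceeded 42 on treated and 8.37%, 11.6% and 13.0% on control arrays. The median signal of the 29 was 15.9, 25.6 and 18.7 on treated and 8.1, 10.9 and 8.3 on control arrays, and that of all weak genes was 16.5, 16.1 and 16 on treated and 11.3, 13.65 and 14.35 on control arrays. Both the keratins and the weak genes as a whole were thus at a higher median signal on the treated arrays, which also had the higher median over all probe sets, and the part of that difference in the keratin values was not tested.

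**Figure D5:**
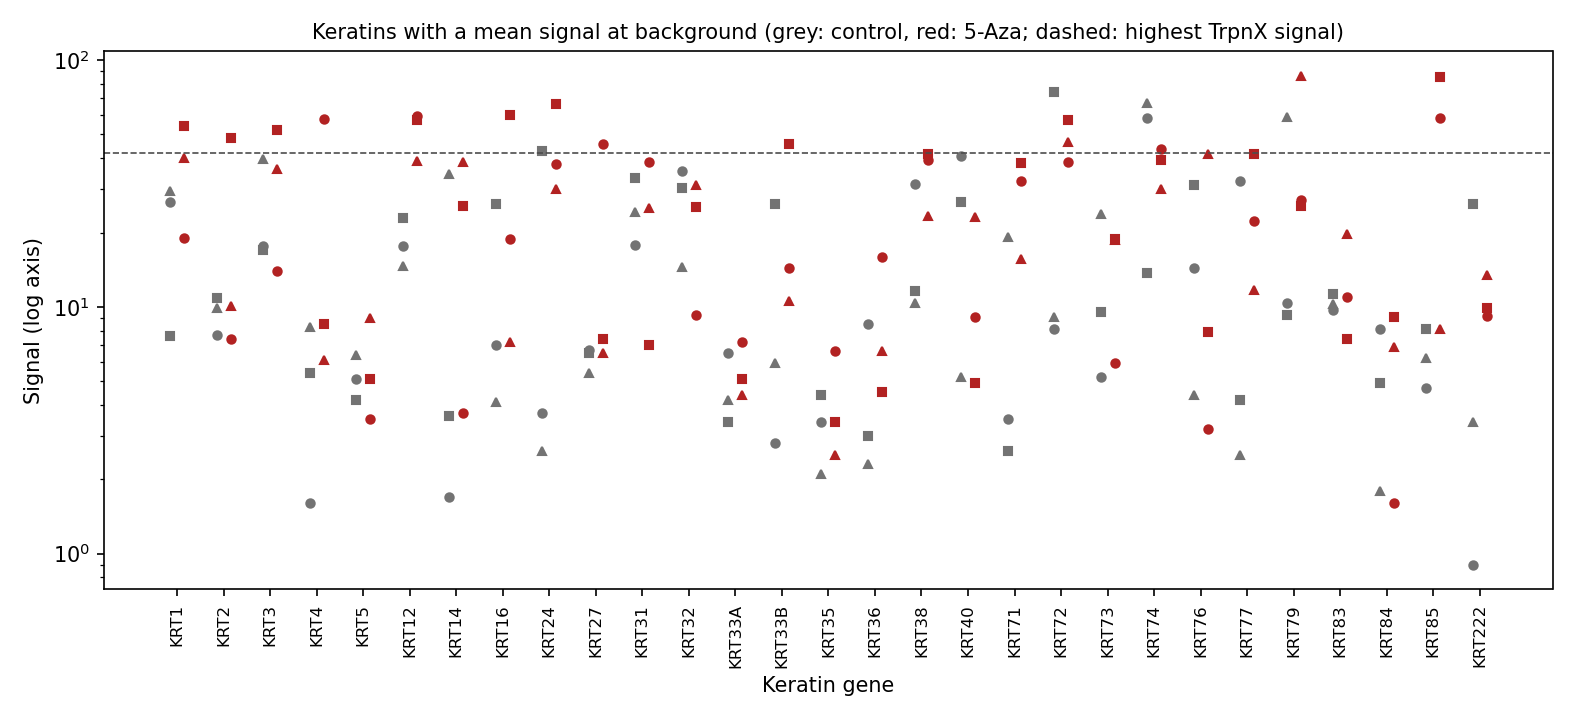
Signals (vertical log axis) of the 29 keratins with a mean signal of at most 42, in control (grey) and 5-Aza-treated cells (red), with circle, square and triangle for arrays 1, 2 and 3 and a dashed line at 42. For most genes the colours are mixed below the line, while the 3 treated signals of KRT12 lie above its 3 control signals.

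The proteins that anchor or accompany keratin filaments were read from lists of the same kind. Of 17 plakins, junction and hemidesmosome proteins, 1 passed an unadjusted p under 0.025 upwards and 0 downwards, and the median log2 fold change was 0.11, beside 3.01% and 0.915% of all genes and their median of 0.04. This was ITGA6, the integrin subunit that joins ITGB4 in hemidesmosomes, with signals of 5133, 5026 and 5288 in treated and 3485, 4038 and 3013 in control cells. The groups did not overlap, and the log2 fold change was 0.56 (SE 0.17, adjusted p = 0.596, limma). Desmoplakin (DSP), which ties keratins to desmosomes, had 0.09 (SE 0.14), and ITGB4 -0.11 (SE 0.25).

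Of 15 other intermediate filament genes, 1 was higher and 1 lower (3.01% and 0.915% of all genes), with a median of 0.15. NEFH, a neurofilament, was higher with signals at background (17.4 to 32.1 in treated and 4.0 to 12.2 in control cells). BFSP1, a filament protein of the lens, was lower, with 258.1, 264.8 and 306.0 in treated and 404.3, 358.7 and 451.3 in control cells (log2 fold change -0.55, SE 0.17, adjusted p = 0.604, limma). Vimentin (VIM), the filament of mesenchymal cells, had 145.3, 269.0 and 229.8 in treated and 150.6, 133.1 and 96.1 in control cells. Its groups overlapped through treated array 1, and it did not pass (log2 fold change 0.74, SE 0.31).

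Genes of squamous differentiation and the cornified envelope are often expressed with the keratins of stratified epithelia. Of 20 names listed 17 were measured. Of these, 2 passed upwards and 0 downwards (3.01% and 0.915% of all genes), the median was 0.31, and 4 had a mean signal above 42. PI3, which encodes the protease inhibitor elafin, had signals of 1222, 1302 and 1549 in treated and 141.4, 127.3 and 206.9 in control cells. The groups were far apart, with 3.11 on the log2 scale (SE 0.24, adjusted p = 0.0933, limma). TGM3, a transglutaminase, had 62.5, 38.3 and 77.1 in treated and 32.1, 31.4 and 23.0 in control cells (log2 fold change 0.97, SE 0.31, adjusted p = 0.611, limma). Involucrin (IVL), a main protein of the cornified envelope, was at background, with signals from 4.7 to 39.7. Of 11 measured transcription factors of epithelial identity (13 listed), 0 passed in either direction, and the median was -0.05. An unadjusted p under 0.05 (limma) was found for 1 of the 11 and for 1427 of all 19775 genes. That factor was TFAP2C, at background with signals of 8.3, 30.4 and 20.8 in treated and 5.7, 7.5 and 5.1 in control cells. KLF5 had signals of 6869 to 7498 in treated and 7319 to 8467 in control cells, and EHF of 10497 to 11569 and 10661 to 12140.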

How the data were processed

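The deposited table holds linear intensity values, a single signal per probe set on each array, made by the authors with the affy package according to the submitters' notes, in which no version is given. The methods for background correction and probe summary are not given in the sources used here. For this report 61 control probe sets were left out (the Alu control was kept), and log2(signal + 1) of 54614 probe sets was compared between 3 treated and 3 control arrays with limma 3.58.1 in R 4.3.3, with the group as the only term and p-values adjusted by Benjamini-Hochberg. limma stands in for the SAM statistic of the study. The limma script was tested on simulated data, and SAM was not run. Single values were also compared by an exact permutation test (two-sided), whose smallest possible p is 0.1. Precision is limited by the number of arrays. Array pairs correlated at 0.926 to 0.934, so none is a duplicate.

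Of 54675 probe sets, the platform annotation gives 41097 a single symbol, 1801 several and 11777 none, and only those with a single symbol were used. The members, gene lists and named genes were chosen with earlier results of these data known. Named with values were 6 keratins of simple epithelium, those at an unadjusted p under 0.025, those with a group mean above 42, and any whose probe sets disagree in sign with 1 past the threshold, in all 21. Other genes are named as examples, chosen after their values were seen. Alternatives were 16 added in place of 1, quantile normalization, median centring, a filter at the median mean signal, trend and robust variance, a replicate block, averaging the probe sets of a gene, and leaving out each array.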

Additional observations from a re-analysis of the deposited data

How the results depend on the processing

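The median log2 fold change of the keratins was 0.52 and became 0.29 with 16 added, 0.41 under quantile normalization, 0.34 under median centring (where the median of all genes was -0.15), 0.015 among the 10 keratins left by the filter, 0.36 with probe sets averaged, and 0.36 to 0.67 without each array in turn. The count of 2 higher keratins was 1 after the filter, which left 10 keratins to be tested, and 1 to 5 without each array (1 without 5-Aza array 2, and 4, 5 and 5 without control arrays 1, 2 and 3). Of all genes left by the filter 4.07% were higher, and of all genes 2.31%, 2.51%, 3.24% and 3.40% without the named arrays, in the same order. The count of lower keratins was 0 throughout, while 0.688% to 3.14% of all genes were lower. The count of 4 with all treated arrays above was 2 under median centring and 5 to 12 without each array. The count of 1 below was 3 under quantile normalization, 3 under median centring, 0 with probe sets averaged and 1 to 2 without each array. For these counts above and below, the share of all genes was not computed, and with an array fewer any gene reaches such an order more easily. For the other settings the cause was not tested.

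Signs turned for 5 named keratins, all with an absolute log2 fold change under 0.18. KRT13 had -0.13 under quantile normalization, -0.18 under median centring and -0.026 to 0.044 without each array. KRT18 had -0.088, -0.17 and -0.080 to 0.17. KRT78 had -0.16, -0.12 and -0.42 to 0.42, and -0.54 with probe sets averaged. KRT74 had 0.30 with probe sets averaged and -0.73 to 0.37 without each array. KRT80 had -0.34 to 0.15. Replicate numbers did not pair the arrays (correlations of deviations between -0.012 and 0.0097), and with a replicate block 3 keratins were higher: KRT12 as before, and KRT16 (p = 0.013, limma) and KRT79 (p = 0.0208, limma) newly, while KRT23 was not (p = 0.0384, limma). Under the trend and robust settings of limma KRT10 (0.0135) and KRT20 (0.00498) came under the threshold, and KRT12 (0.0382) did not. Newly past the threshold were KRT38 and KRT77 without control array 1, KRT24, KRT72 and KRT222 without control array 2, KRT9, KRT37, KRT71 and KRT75 without control array 3, and KRT85 without 5-Aza array 3. With signals near background on 3 arrays a group, weak keratins are not measured well enough to give a fold change of the transcript.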
